A study of Homo sapiens with 14 samples.

Results

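The mitochondrial ribosomal protein genes are the nuclear genes whose symbols begin with MRPL or MRPS, followed by a number and, in some, A or B. The rule reads the symbol and no measured value, and 77 of the 58825 genes in the count tables met the rule. By symbol, 49 were named for the large subunit and 28 for the small one, and they lay on 21 chromosomes. Counts were found for 76 of the 77, and these 76 passed the filter on low counts in the model of each line.

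RNA was sequenced from OVCAR-3, CAOV3 and SKOV3 cells, which are 3 established lines derived from human ovarian tumours. Each was treated with 2.5 µM of GSK-J4, which inhibits KDM6A and KDM6B, enzymes that remove methyl groups from histone H3, or with GSK-J5, its isomer used as the inactive control. OVCAR-3 cells were collected after 48 h (2 libraries for each compound) and 72 h (3 libraries for each compound). CAOV3 and SKOV3 cells were collected after 72 h (3 libraries for each compound). Replicates 1 and 2 and replicate 3 were made as separate sets. Per the labels, the first set was treated in stripped medium and its RNA extracted with the RNeasy mini kit, while the second set has serum in its medium, the RNeasy Plus kit and a poly(A) library. Nothing in the labels says that the replicates were separate cultures, so the p-values measure the spread between these libraries, which may be technical. The GSK-J5 libraries are the only controls used here. The bulk libraries cannot tell a change in RNA per cell from a change in the make-up of the culture.

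Mitochondria hold their own ribosome, which translates the messenger RNAs of the mitochondrial genome into subunits of the respiratory chain and ATP synthase. Its ribosomal RNAs come from the mitochondrial genome, whereas its proteins are encoded in the nucleus, made in the cytosol and imported. Some of these proteins have counterparts in the bacterial ribosome and others are particular to mitochondria. A few symbols do not match the place of the protein: MRPS30 and MRPS18A sit in the large subunit, and MRPS36 is now known as a part of the 2-oxoglutarate dehydrogenase complex. By structure the 77 were therefore split into 30 large-subunit proteins with a bacterial counterpart, 21 particular to the mitochondrial large subunit, 15 small-subunit proteins with a bacterial counterpart, 10 particular to the mitochondrial small subunit, and MRPS36.

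The 22 libraries held between 24037007 and 37990707 counts. Members took 0.312% to 0.681% of all counts. The share was 0.484% and 0.478% in OVCAR-3 replicates 1 and 2 with GSK-J5 for 72 h, and 0.681% and 0.636% with GSK-J4. In the same GSK-J4 libraries the 20 most abundant genes took 12.7% and 13.0% of counts against 8.12% and 7.74% with GSK-J5, and 14714 and 14680 genes reached 10 counts against 16444 and 16504. The part of this shift in the values below was not tested. Of the 9 epithelial and ovarian markers, 9 reached a mean of 1 CPM (counts scaled to a common library total) in OVCAR-3 controls of 72 h, 8 in CAOV3 and 7 in SKOV3. Of 17 leukocyte, fibroblast and endothelial markers, CD3E and CD68 were at 0 in the controls of each line. In CAOV3 controls CD14 stood at a mean of 72.5 CPM and COL1A1 at 50.5, and in OVCAR-3 controls of 72 h COL1A1 stood at 41.2. In SKOV3 the 6 fibroblast markers summed to 479 to 619 CPM with GSK-J5, and EPCAM and CDH1 stood at means of 12.9 and 5.65.

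Levels are given as CPM scaled by the trimmed mean of M values (TMM) over all 22 libraries, and levels of different genes as CPM per kilobase of median transcript length. In OVCAR-3 with GSK-J5 for 72 h the median member stood at 39.4 CPM per kilobase, with quartiles of 19.9 and 60.8. MRPS34, of the small subunit, was highest at 241 ± 36 CPM per kilobase (SD, n = 3), followed by MRPS12, a protein of the decoding centre, at 236 ± 17. MRPL49 followed at 212 ± 4.4 and MRPL43 at 164 ± 7.4, with MRPL51 at 162 ± 1.3 next. MRPS34 and MRPS12 did not differ beyond their spread, nor did MRPL43 and MRPL51. In CAOV3 controls the order began with MRPL51 at 295 ± 63, MRPL49 at 253 ± 19, MRPL37 at 155 ± 12 and MRPS15 at 133 ± 3.6 CPM per kilobase. In SKOV3 controls it began with MRPL49 at 164 ± 5.1, MRPS15 at 108 ± 8.6, MRPL37 at 106 ± 29 and MRPS27 at 102 ± 8.5. MRPL49 was the member shared by the leading 4 of all 3 lines.

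The lowest members were the same in the 3 lines, and each overlaps another gene on its own strand. MRPL53 (chr2:74471958-74473322, minus strand, GENCODE 29 on GRCh38) had 0 counts in every library, so that at most 3 counts in any library are allowed, and all of its coding bases are shared with CCDC142. MRPL38 had 0 to 30 counts, MRPL46 0 to 38 and MRPS24 0 to 46. The coding bases they share with a neighbour on the strand amount to 94.1%, 64.0% and 92.2%. MRPS28 had 8 to 75 counts and shares 53.0%. These 5 were the members with under 100 counts in every library, and all 5 share at least 50% of their coding bases, against 8 of the 77 members in all. The sources used here do not give how reads in shared exons were counted. The low counts therefore need not mean low RNA, and values of these 5 are uncertain. MRPS17 (100% shared), MRPL12 (96.0%) and MRPL30 (95.3%) kept 30 or more counts in every library and are uncertain for the same reason, since their counts may come from the unshared parts of their exons. No coding base is shared on the strand in 65 members.

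**Figure D1:**
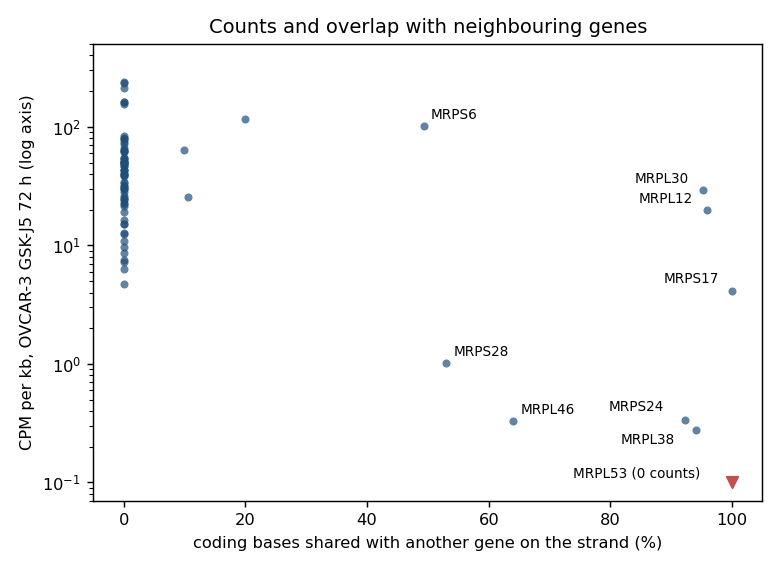
Mean CPM per kilobase of each member in OVCAR-3 with GSK-J5 for 72 h (y, log axis) against the percent of its coding bases shared with another gene on the same strand (x). The members sharing none spread over the upper range, and MRPS28, MRPL46, MRPS24, MRPL38 and MRPL53, which share 53.0% to 100%, lie lowest.

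Most members stood higher in OVCAR-3 cells treated with GSK-J4 for 72 h than in their GSK-J5 controls, and a small group stood lower. The median log2 fold change over the 76 members was 0.64, with 64 positive, against a median of -0.08 over all 16802 genes tested. No member passed the threshold, an adjusted p of 0.05 in edgeR's quasi-likelihood test with library set as a term, and 0.0298% of all genes did. At an unadjusted p under 0.05 the count was 45 of 76 members and 7244 of all genes, and DESeq2's Wald test called 37 members higher, where 20.3% of all genes were, and 2 lower, where 18.1% were. The set of replicates 1 and 2 had much larger changes than replicate 3. Within replicates 1 and 2 alone, 55 of 75 members were called higher, where 34.6% of all genes were, and 8 lower, where 37.1% of all genes were. The median member rose by 0.87 on the log2 scale in that set, against -0.09 over all genes. Leaving out replicate 3 of either compound gave 56 higher and 8 lower, and leaving out any other 72 h library gave none.

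**Figure D2:**
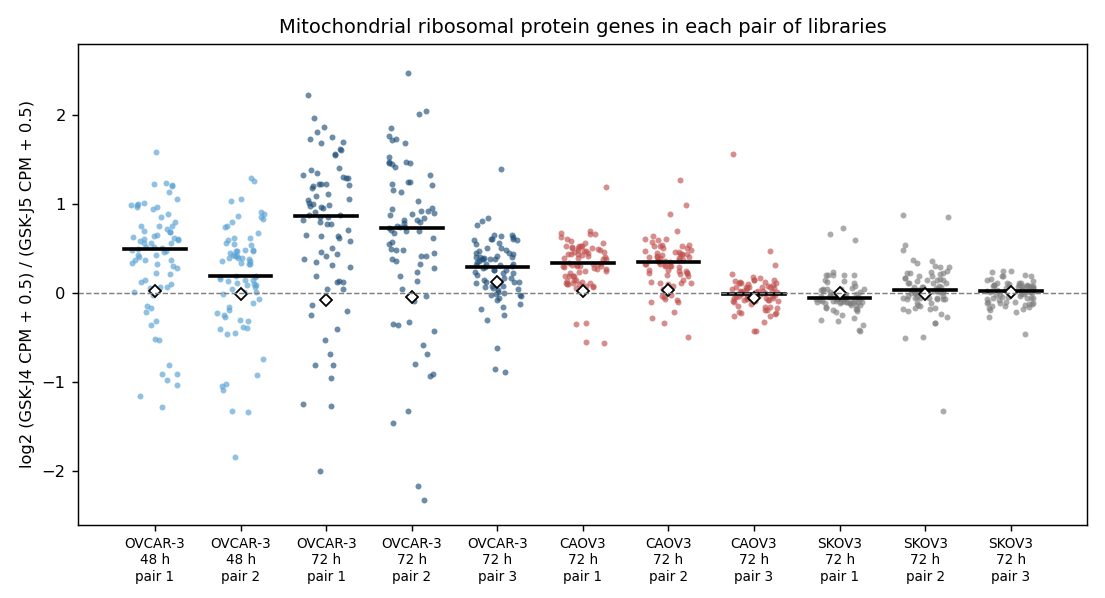
Log2 ratio of GSK-J4 to GSK-J5 CPM (y, pseudocount 0.5) for each member (points) in the 11 same-numbered pairs of libraries (x); bars are the medians of the members and diamonds the medians of all genes with a summed CPM of at least 2. The medians of OVCAR-3 pairs 1 and 2 at 72 h, 0.87 and 0.74, are the highest, and those of SKOV3 lie near 0.

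MRPL58 is a peptidyl-tRNA hydrolase built into the large subunit, where it can release chains from stalled ribosomes (chr17:75012670-75021261, plus strand). It stood at 49.7, 43.7 and 50.1 CPM in the 3 GSK-J5 libraries of 72 h and at 233, 245 and 71.5 CPM with GSK-J4. The groups did not overlap, and the GSK-J4 library of replicate 3 lay far below the other two. Within replicates 1 and 2 MRPL58 rose 5.39-fold (log2 2.43 ± 0.11 SE, edgeR adjusted p = 6.4e-07), and over all 3 replicates its log2 fold change was 1.75 ± 0.44 with an adjusted p of 0.070.

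MRPS2, a core protein of the small subunit, stood at 38.6, 38.1 and 37.5 CPM with GSK-J5 and at 153, 159 and 49.9 CPM with GSK-J4. MRPS30 stood at 86.0, 84.2 and 86.0 CPM with GSK-J5 and at 254, 341 and 132 CPM with GSK-J4. MRPS18B, 1 of the 3 relatives of bacterial protein S18, stood at 32.5, 32.3 and 38.5 CPM with GSK-J5 and at 101, 94.4 and 58.9 CPM with GSK-J4. In each of these genes the lowest GSK-J4 value was that of replicate 3 and still lay above all 3 controls. Within replicates 1 and 2 MRPS2 rose 4.26-fold (log2 2.09 ± 0.10) and MRPS30 3.67-fold (1.87 ± 0.14). MRPS35, MRPS26 and MRPL21 rose there by 1.87, 1.84 and 1.84 on the log2 scale, and MRPS18B by 1.67. Over all 3 replicates the highest values after MRPL58 belonged to MRPL38, an uncertain member of low counts, at 1.65 ± 1.00, and to MRPS2, at 1.49 ± 0.39 with an adjusted p of 0.070.

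The 8 members that fell within replicates 1 and 2 came from both subunits. They were MRPL50, MRPS17, MRPL35, MRPS14, MRPS31, MRPS7, MRPL57 and MRPL30, with log2 fold changes from -2.17 to -0.63. MRPL50, a large-subunit protein particular to mitochondria (chr9:101387633-101398614, minus strand), stood at 25.7, 24.02 and 22.3 CPM with GSK-J5 and at 6.09, 4.42 and 14.4 CPM with GSK-J4. The groups did not overlap, and replicate 3 again moved least. MRPL50 fell 4.50-fold within replicates 1 and 2 (log2 -2.17 ± 0.18, adjusted p = 7.9e-06), and over all 3 replicates its log2 fold change was -1.71 ± 0.36 with an adjusted p of 0.070.

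MRPL35, a large-subunit protein with a bacterial counterpart, stood at 47.6, 47.7 and 27.9 CPM with GSK-J5 and at 19.7, 18.8 and 35.6 CPM with GSK-J4. MRPS14, of the small subunit head, stood at 23.2, 24.3 and 13.4 CPM with GSK-J5 and at 11.8, 8.52 and 18.2 CPM with GSK-J4. In both genes the order of the compounds in replicate 3 was opposite to that in replicates 1 and 2, and the replicate 3 control lay well below the other controls. MRPS31 showed the same order, with 10.8, 11.2 and 6.01 CPM with GSK-J5 and 6.52, 5.75 and 8.64 CPM with GSK-J4. So did MRPS7, a protein that contacts the 12S ribosomal RNA, with 122, 117 and 84.4 CPM against 69.7, 67.6 and 102 CPM. In MRPL57 the order also turned, with 34.4, 35.2 and 31.8 CPM with GSK-J5 and 23.7, 18.2 and 35.8 CPM with GSK-J4. MRPS17, whose coding bases are all shared with a neighbour, stood at 7.32, 8.69 and 7.02 CPM with GSK-J5 and at 2.76, 1.54 and 6.63 CPM with GSK-J4. MRPL30, also uncertain through overlap, stood at 46.2, 45.6 and 46.6 CPM against 26.3, 30.3 and 45.9 CPM.

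**Figure D3:**
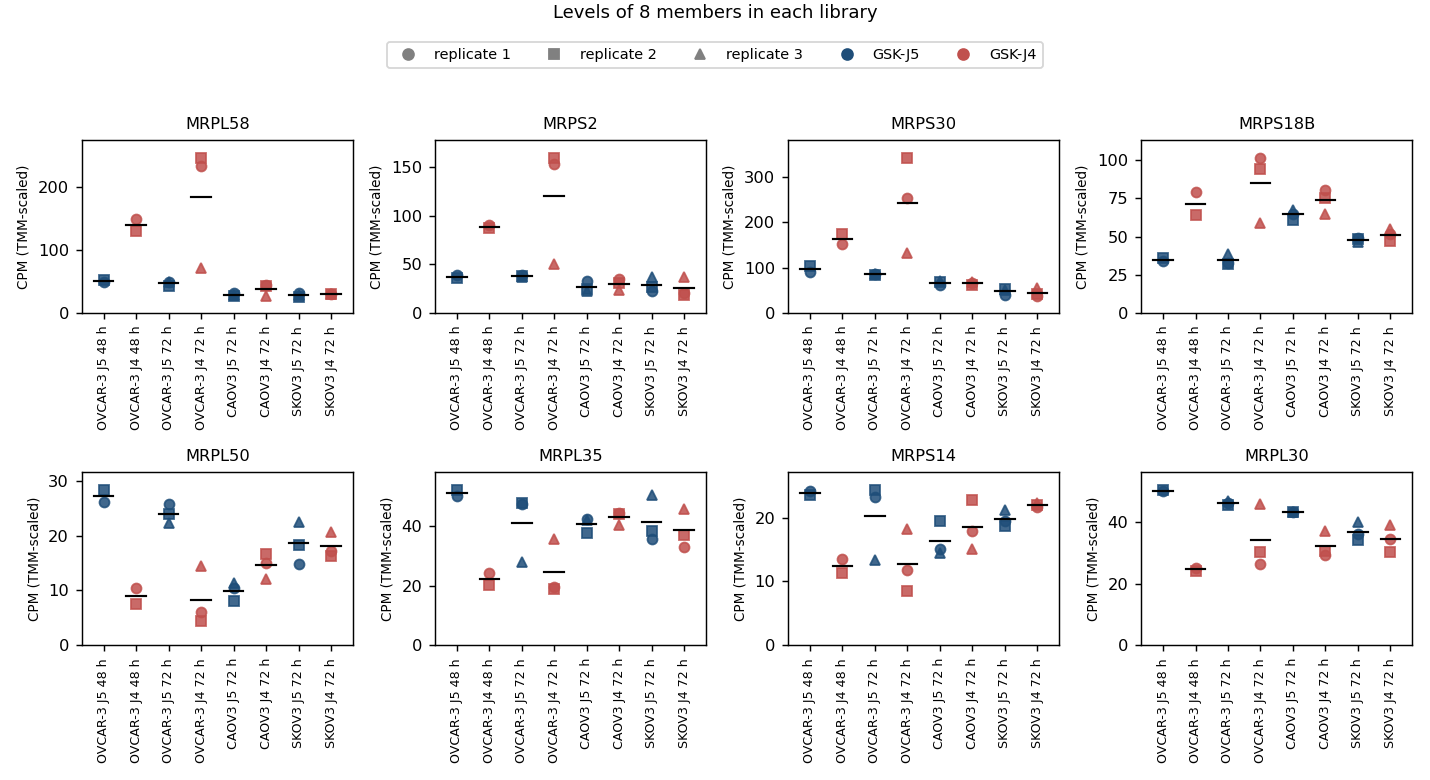
TMM-scaled CPM (y) of 8 members in each library by line, compound and time (x); marker shapes are replicates, colours compounds and bars group means. In OVCAR-3 the GSK-J4 libraries of MRPL58, MRPS2, MRPS30 and MRPS18B lie above the controls at both times, and MRPL50 lies below them.

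Promoter sequences were found for 68 of the 77 members in RefSeq (GRCh38.p14), as windows of 300 bases from 250 before to 50 after the annotated start. The core of the YY1 motif, AAGATGGC on either strand, occurs in 20 of the 68 windows (29.4%), against 3.03% of the 27305 promoters in the table, 9.68% of those of cytosolic ribosomal protein genes and 17.5% of those of nuclear genes of oxidative phosphorylation. Of the 8 members that fell in OVCAR-3 replicates 1 and 2, MRPL50 and MRPS7 carry it, MRPS17, MRPS14, MRPS31, MRPL57 and MRPL30 do not, and MRPL35 was not matched. YY1 is a zinc-finger factor that can activate or repress, and the motif overlaps the ATG of some start codons. The windows below show it in capitals in 4 members that stood higher and 2 that stood lower in OVCAR-3, each 5′ to 3′ on the strand of its gene:
MRPS18B, chr6:30617852-30617881, plus strand: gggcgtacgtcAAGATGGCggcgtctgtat
MRPS30, chr5:44808949-44808978, plus strand: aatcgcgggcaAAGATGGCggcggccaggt
MRPL42, chr12:93467511-93467540, plus strand: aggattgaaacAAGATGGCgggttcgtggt
MRPL51, chr12:6493223-6493252, minus strand: gggtaaggcccAAGATGGCtgtcttcgcct
MRPL50, chr9:101398577-101398606, minus strand: ggatctcatcgAAGATGGCggcgcgatctg
MRPS7, chr17:75261887-75261916, plus strand: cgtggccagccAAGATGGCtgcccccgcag

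Of 21 such sites in the 20 members, 17 were on the strand of the gene, 15 began at or after the start, and the ATG of 12 was an annotated start codon. The letters at these 12 therefore also spell the first codons of the protein. MRPS18B and MRPS30, which rose within OVCAR-3 replicates 1 and 2, and MRPL50 and MRPS7, which fell, all belong to these 12. In that set the median log2 fold change was 0.84 over the 19 tested members with the motif and 0.97 over the 47 without it. In CAOV3 replicates 1 and 2 the medians were 0.37 over 20 members and 0.29 over 47. Other motifs were searched on either strand in the same windows, where any of them may overlap another. The ETS motif CCGGAAGT occurred in 16.2% of member windows and 4.44% of all, the NRF1 motif GCGCATGC in 7.35% and 3.27%, and the E-box CACGTG in 7.35% and 7.43%. The CRE motif TGACGTCA occurred in 0 member windows and 1.98% of all. In 16 of the 77 members (20.8%) a coding gene on the opposite strand starts at most 1000 bases upstream of the member's start, against 7.38% of 19940 coding genes. Opposite-strand genes that start downstream of the member's start were not counted. These shares describe letters and positions, and binding of the factors was not measured. The 27305 promoters outnumber the 19940 coding genes, so motif shares over all promoters are not those of coding genes alone.

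At 48 h most OVCAR-3 members lay on the same side of their controls as at 72 h. Of the 75 members tested at both times in replicates 1 and 2, 70 had 1 sign, and MRPL16, MRPL23, MRPL27, MRPL46 and MRPS6 did not. Over all replicates some members had the larger change at 48 h. MRPL30 had log2 fold changes of -0.99 at 48 h and -0.49 at 72 h, and MRPL35 had -1.17 and -0.77. The 48 h libraries all belong to the first set, whereas these 72 h values also take in replicate 3. Within replicates 1 and 2 MRPL30 still had the larger change at 48 h, with -0.997 against -0.63 at 72 h. MRPL35 did not, with -1.17 at 48 h and -1.23 at 72 h. In the model of all 10 OVCAR-3 libraries 6 members were called higher with GSK-J4, where 11.3% of all genes were, and 3 lower, where 7.63% were. The 6 were MRPL58 (log2 1.48 ± 0.43), MRPS26 (1.19 ± 0.34), MRPS18B (1.07 ± 0.28), MRPS35 (1.05 ± 0.31), MRPL42 (0.91 ± 0.24) and MRPS11 (0.71 ± 0.21), with edgeR adjusted p from 0.037 to 0.050. The 3 were MRPL50 (-1.56 ± 0.37), MRPL35 (-1.17 ± 0.34) and MRPL30 (-0.99 ± 0.17), with edgeR adjusted p of 0.033, 0.047 and 0.018. Of these, MRPL30 is uncertain through overlap. The median over members was 0.38, with 60 of 76 positive, and -0.03 over all genes. With 6 of 76 called higher, the members' share lies below the background. Leaving out any 1 of the 4 libraries of 48 h left 0 members called in edgeR, and the replicate block left 0 higher and 1 lower.

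MRPL58 stood at 49.3 and 53.0 CPM with GSK-J5 for 48 h and at 149 and 131 CPM with GSK-J4. MRPS26, a small-subunit protein particular to mitochondria, stood at 58.6 and 59.8 CPM against 139 and 125 CPM. MRPL50 stood at 26.2 and 28.3 CPM against 10.5 and 7.55 CPM. None of these groups overlapped. Without replicate 3 of 72 h the same contrast called 41 members higher (29.1% of all genes) and 10 lower (29.8%). Of the 41, 40 were also called higher at 72 h in replicates 1 and 2, which is 97.6% of the 48 h members and 72.7% of the 72 h members. The remaining member, MRPS24 (log2 4.56 at 48 h), was not tested at 72 h in that set and is uncertain through its low counts. Of the 10 lower, 8 were called lower at 72 h, which is 80.0% of the 48 h members and all of the 72 h members, and MRPL16 and MRPL40 were the other 2. No member was called in opposite directions at the 2 times, whose libraries are separate.

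The effect at 72 h minus that at 48 h was called in 0 of 76 members by edgeR over all replicates (2 at an unadjusted p under 0.05), where 0.00575% of all genes were called, and DESeq2 called 1 member and 2.15% of all genes. Its median was 0.24, with 71 members positive. The lowest were MRPS24 at -3.49 ± 2.26 and MRPL46 at -0.33 ± 1.80, both of low counts, and the highest were MRPL38 at 1.44 ± 1.25, MRPS31 at 0.64 ± 0.40 and MRPS30 at 0.64 ± 0.42. Within replicates 1 and 2, 33 members had a higher effect at 72 h (11.9% of all genes), and none a lower one, although 15.2% of all genes did. The largest differences were in MRPS30 (1.08 ± 0.19), MRPL58 (0.95 ± 0.14), MRPL48 (0.92 ± 0.16) and MRPS15 (0.90 ± 0.14). All 40 members called higher at both times had the larger change at 72 h.

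The difference between the library sets was itself tested in OVCAR-3 at 72 h. The effect in replicate 3 minus that in replicates 1 and 2 was lower in 42 of 76 members (18.8% of all genes) and higher in 10 (25.8%), with a median of -0.77 over members and 0.16 over all genes. Since the second set has 1 library for each compound, these are assumed to vary like those of the first set. The difference was -1.98 ± 0.18 in MRPL58, -1.91 ± 0.27 in MRPL54, -1.74 ± 0.17 in MRPS2, -1.54 ± 0.18 in MRPL2 and -1.52 ± 0.18 in MRPS26. It was 1.68 ± 0.44 in MRPS17, 1.52 ± 0.20 in MRPL35, 1.52 ± 0.29 in MRPS14 and 1.48 ± 0.29 in MRPL50. MRPS24, MRPL38 and MRPL46 were also called, but rest on 0 to 30 counts in these libraries. Of the 55 members called higher in replicates 1 and 2, 50 were higher in the pair of replicate 3. Of the 8 called lower, 3 were lower there. In that pair 8926 of 13904 genes were higher, with a median log2 ratio of 0.13 over all genes and 0.30 over all 76 members. Cytosolic ribosomal protein genes had 64 of 76 called lower and 0 higher in the same difference. The part of the medium, the RNA kit and the library type in it cannot be told apart.

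**Figure D4:**
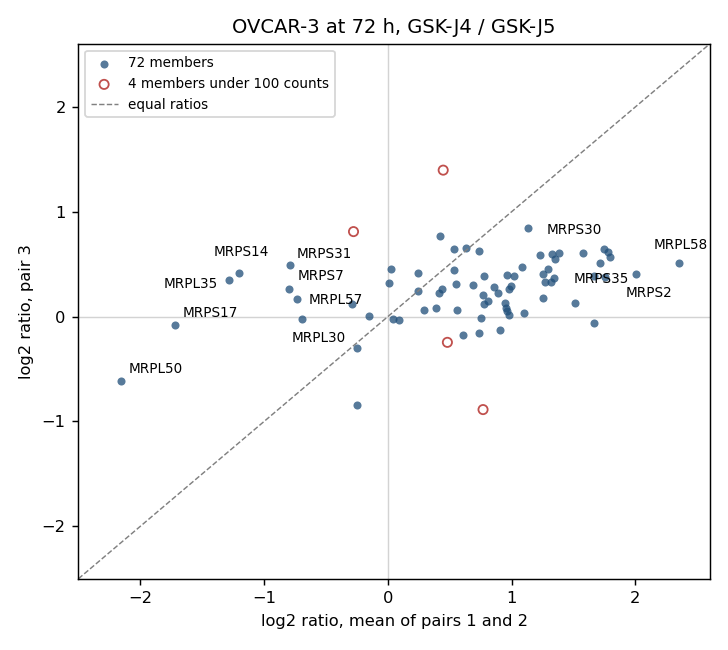
Log2 ratio of GSK-J4 to GSK-J5 CPM for the OVCAR-3 libraries of 72 h, pair 3 (y) against the mean of pairs 1 and 2 (x), for 76 members; the dashed line marks equal ratios and open circles are 4 members under 100 counts. Of the 55 members called higher in replicates 1 and 2, 50 lie above 0 in pair 3, most of them below the line, and MRPL35, MRPS14, MRPS31, MRPS7 and MRPL57 change sign in pair 3. Of all genes 8926 of 13904 lie above 0 in pair 3.

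In CAOV3 at 72 h nearly all members leaned upward by a small amount. The median log2 fold change was 0.23 with 70 of 76 positive, against -0.01 over all 17137 genes. No member was called by edgeR over the 3 replicates, where 0.315% of all genes were, although 34 members and 2801 of all genes had an unadjusted p under 0.05. Of the 61 members to which DESeq2's Wald test gave an adjusted p, it called 9 higher (3.89% of all genes) and 1 lower (5.01%). The lowest members were MRPL30 at -0.42 ± 0.12, MRPS25 at -0.27 ± 0.21 and MRPS9 at -0.22 ± 0.13. The highest were MRPL38 at 1.98 ± 1.14, MRPL46 at 0.75 ± 1.02 and MRPS24 at 0.64 ± 0.97, all of which rest on under 100 counts.

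Within CAOV3 replicates 1 and 2, 28 of 76 members were called higher, where 6.7% of all genes were, and 1 lower, where 7.38% were. MRPL43, a large-subunit protein particular to mitochondria, stood at 56.8, 49.3 and 60.2 CPM with GSK-J5 and at 91.1, 91.6 and 63.1 CPM with GSK-J4. The first 2 GSK-J4 libraries stood above all controls and the third lay near them. MRPL43 rose by 0.76 ± 0.10 on the log2 scale within replicates 1 and 2 (adjusted p = 1.4e-04). MRPL50 rose there by 0.75 ± 0.21, MRPS6 by 0.66 ± 0.12, MRPL41 by 0.57 ± 0.10 and MRPL49 by 0.57 ± 0.08. MRPL30, the 1 member called lower, is uncertain through overlap. It stood at 43.3, 43.0 and 43.1 CPM with GSK-J5 and at 29.2, 30.5 and 37.0 CPM with GSK-J4. In the pair of replicate 3 the median member ratio was -0.01 with 35 of 76 positive, against 0.34 and 0.35 in pairs 1 and 2. The difference between sets was called lower in MRPL43 (-0.64 ± 0.18) and MRPL49 (-0.55 ± 0.15) and higher in none, where 0.78% of all genes were lower and 1.63% higher. Both calls were lost without the GSK-J5 library of replicate 2 or the GSK-J4 library of replicate 1.

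In SKOV3 at 72 h the median member ratio lay near 0 in each pair, at -0.06, 0.04 and 0.02. The median was -0.01 with 37 of 76 positive, edgeR called 0 members (0 at an unadjusted p under 0.05 as well) and 0.0412% of all genes, and DESeq2 called 0. Within replicates 1 and 2 none was called either (1 at an unadjusted p under 0.05), against 0.0908% of all genes. The highest were MRPS28 at 0.39 ± 0.43 and MRPL38 at 0.33 ± 0.76, and the lowest were MRPL45, which helps to hold the ribosome at the inner membrane, at -0.50 ± 0.40, MRPL9 at -0.22 ± 0.14 and MRPS24 at -0.22 ± 1.00. MRPL45 stood at 21.0, 46.8 and 39.1 CPM with GSK-J5 and at 20.6, 18.4 and 42.3 CPM with GSK-J4, so that its low value came from pair 2. MRPL58 stood at 31.5, 26.4 and 29.4 CPM with GSK-J5 and at 30.5, 31.0 and 30.2 CPM with GSK-J4, which overlap. MRPL50 stood at 14.9, 18.4 and 22.4 CPM against 17.3, 16.3 and 20.7 CPM. The effect in replicate 3 minus that in replicates 1 and 2 was called in 0 members (0 at an unadjusted p under 0.05) and 0.0108% of all genes. KDM6A and KDM6B, the targets of the compound, were not called in any line at 72 h, with log2 fold changes of -0.01 ± 0.17 and 0.16 ± 0.14 in OVCAR-3, -0.25 ± 0.14 and -0.46 ± 0.15 in CAOV3, and 0.0011 ± 0.092 and 0.0034 ± 0.11 in SKOV3. At 48 h in OVCAR-3 KDM6B rose by 0.89 ± 0.16 (edgeR adjusted p = 0.019).

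The effect of GSK-J4 at 72 h was called different between OVCAR-3 and the other lines in part of the members. The difference itself was tested over the 18 libraries of 72 h, which share 1 estimate of the spread. In MRPL58 the SE of the difference from CAOV3 (0.38) was below that of the OVCAR-3 effect fitted alone (0.44). The OVCAR-3 libraries of 72 h alone called no member, and the calls below assume that the lines vary alike. Against CAOV3, 20 of 76 members had a higher effect in OVCAR-3 (12.7% of all genes) and 4 a lower one (6.63%). DESeq2's size factors moved the split of all genes from 2565 higher and 1342 lower to 2203 and 1770, and gave 17 and 4 members. The highest differences were in MRPS30 (1.43 ± 0.28), MRPL58 (1.42 ± 0.38), MRPS35 (1.38 ± 0.26), MRPS2 (1.35 ± 0.34), MRPS26 (1.15 ± 0.28) and MRPL21 (1.14 ± 0.26). The 4 lower were MRPL50 (-2.24 ± 0.40, adjusted p = 0.0036), MRPS17 (-1.63 ± 0.51), MRPL57 (-0.77 ± 0.25) and MRPS7 (-0.76 ± 0.24). Against SKOV3, 30 members had a higher effect (13% of all genes) and 1, MRPL50, a lower one (-1.66 ± 0.39), where 7.82% of all genes were lower. Both comparisons lost every member call when replicate 1 or replicate 2 was left out over all lines. They share the OVCAR-3 libraries, so they are not separate evidence.

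MRPL50 moved in opposite directions in the 2 lines. It stood at 10.4, 8.15 and 11.3 CPM in CAOV3 with GSK-J5 and at 15.0, 16.6 and 12.2 CPM with GSK-J4, with every GSK-J4 library above every control. In OVCAR-3 every GSK-J4 library lay below every control. Within replicates 1 and 2, 7 of the 8 members called lower in OVCAR-3 had a positive fold change in CAOV3, and MRPL50 and MRPS7 were called higher there. Of the 76 members tested in CAOV3, only MRPL30, MRPS9, MRPS25, MRPS30 and MRPL12 were negative. A positive value there is thus not particular to the members that fell in OVCAR-3. MRPS7 stood at 63.1, 62.7 and 65.5 CPM in CAOV3 controls and at 87.4, 82.8 and 68.5 CPM with GSK-J4. MRPL30 was the exception, lower in both lines. Of the 28 members called higher in CAOV3, 21 were called higher in OVCAR-3, which is 75% of the CAOV3 members and 38.2% of the OVCAR-3 members. Among all 75 members tested in OVCAR-3, 55 were called higher, a share close to that 75%. The overlap is therefore near what the OVCAR-3 calls give by themselves. The CAOV3 and SKOV3 effects were not told apart over all replicates: edgeR called 0 members (3 at an unadjusted p under 0.05) and 0% of all genes, DESeq2 called 0 members, and the median difference was 0.22.

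**Figure D5:**
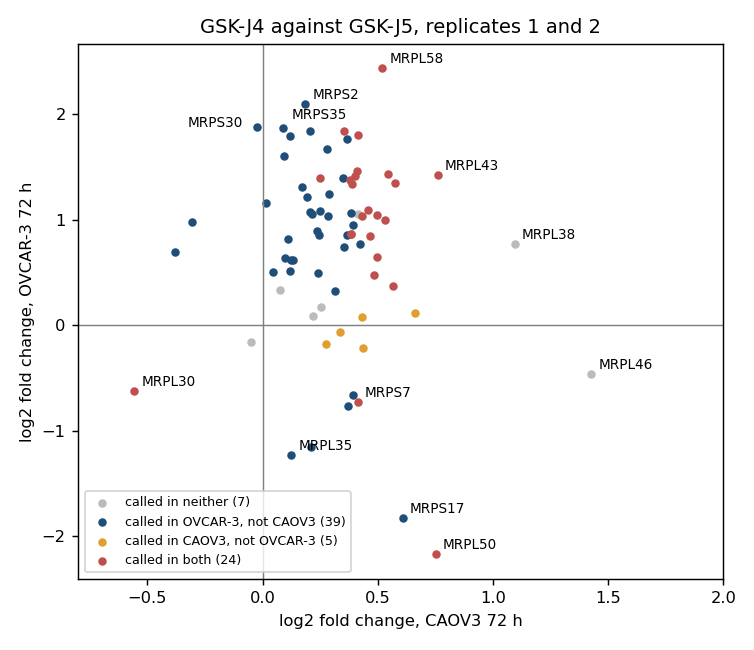
Log2 fold change of GSK-J4 against GSK-J5 in OVCAR-3 (y) and CAOV3 (x) at 72 h within replicates 1 and 2 for the 75 members tested in both; colours give the edgeR calls at an adjusted p of 0.05. Most points lie in the upper right, with 59 positive in both lines, and MRPL50, MRPS17, MRPL35 and MRPS7 lie in the lower right.

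Over all replicates 32 members had a positive log2 fold change in each of the 3 lines and 2, MRPL12 and MRPL30, a negative one. The members with the largest smallest change were MRPL38 (0.33 at least), MRPL33 (0.23), MRPS28 (0.19), MRPS36 (0.19), MRPL43 (0.16) and MRPL27 (0.14). None of these was called in any line over the 3 replicates, and MRPL38 and MRPS28 are uncertain members. MRPL12 and MRPL30 are uncertain through overlap as well.

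In the control libraries of all replicates members differed between lines in both directions, about as often as all genes or less often. OVCAR-3 had 24 of 76 members higher than CAOV3 (24.7% of all genes) and 13 lower (23.6%). MRPS35 was higher by 1.77 ± 0.24, MRPS6 by 1.68 ± 0.24, MRPS34 and MRPL24 by 1.58 ± 0.19 and 1.58 ± 0.27, and MRPS25 by 1.57 ± 0.32. MRPS11 was lower by 1.64 ± 0.31 (log2 difference -1.64), MRPL40 stood at -1.53 ± 0.18, MRPS15 at -1.36 ± 0.19 and MRPL2 at -1.29 ± 0.31. MRPL40 stood at 32.4, 32.8 and 39.2 CPM in OVCAR-3 and at 111, 113 and 89.8 CPM in CAOV3, with no overlap. OVCAR-3 had 25 members higher than SKOV3 (26.9% of all genes) and 9 lower (24.8%). MRPS12 was highest with 2.91 ± 0.34 and MRPL43 next with 2.72 ± 0.26, while MRPL45 stood at -1.30 ± 0.35 and MRPL54 at -1.19 ± 0.28. MRPS12 stood at 307, 282 and 266 CPM in OVCAR-3 and at 29.7, 30.5 and 59.2 CPM in SKOV3. CAOV3 had 20 members higher than SKOV3 (27.2% of all genes) and 11 lower (27.2%), led by MRPL51 at 1.97 ± 0.22 and by MRPS35 at -1.40 ± 0.23. Replicates 1 and 2 alone called 21 members lower for OVCAR-3 against CAOV3, 41 higher for OVCAR-3 against SKOV3 and 39 higher for CAOV3 against SKOV3. In each of these comparisons members were called in the other direction as well. The shares of all genes are not given for them, so no lean of the members is read from these counts.

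In OVCAR-3 replicates 1 and 2 every subunit class held members called higher and members called lower. Of all genes 34.6% were called higher there and 37.1% lower, and the classes were not compared by a test. Large-subunit proteins with a bacterial counterpart had 22 of 30 called higher and 2 lower, with a median of 0.86. Those particular to the mitochondrial large subunit had 14 of 20 higher and 2 lower, with a median of 0.85. In the small subunit the counts were 9 of 14 higher and 3 lower with a bacterial counterpart, and 9 of 10 higher and 1 lower among those particular to mitochondria, with medians of 1.01 and 1.00. Of the 8 exit-tunnel proteins 7 were called higher and 0 lower, with changes from 0.08 to 1.07. Of the 3 relatives of bacterial S18, MRPS18B rose by 1.67 ± 0.10, MRPS18A had 0.33 ± 0.15 with an adjusted p of 0.072, and MRPS18C, which the symbol rule does not take in, had -0.26 ± 0.56.

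Other genes that serve mitochondrial translation were read in the same libraries, from lists drawn up with earlier results known. The counts below stand beside 34.6% of all genes called higher and 37.1% lower in OVCAR-3 replicates 1 and 2 at 72 h. There 10 of 16 mitochondrial translation factors were called higher and 3 lower. MTIF3 and MTIF2, which start translation, rose by 1.71 ± 0.16 and 1.58 ± 0.11. Of 24 genes for mitoribosome assembly and rRNA modification 9 were higher and 6 lower, from NOA1 at 1.64 ± 0.13 to TRMT61B, a methyltransferase for mitochondrial RNA, at -2.08 ± 0.24. The counts of the 2 mitochondrial ribosomal RNAs rose, MT-RNR1 by 2.45 ± 0.13 and MT-RNR2 by 3.93 ± 0.20. Mitochondrial ribosomal RNA took only 0.044% and 0.032% of counts with GSK-J5 and 0.381% and 0.318% with GSK-J4. The part of the library preparation in these counts was not tested. Of 12 messenger RNAs of the mitochondrial genome 6 fell and 0 rose, with a median of -1.22, and MT-ND4 fell by 2.15 ± 0.36 and MT-CO3 by 1.83 ± 0.26. Cytosolic ribosomal protein genes had 71 of 76 higher and 0 lower with a median of 1.86, and nuclear genes of oxidative phosphorylation 54 of 75 higher and 3 lower with a median of 0.81. In CAOV3 replicates 1 and 2 the cytosolic median was 0.29 and the oxidative phosphorylation median 0.31, beside 0.35 for members. These lists are described by counts and medians, and none was tested as a set.

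With 18 libraries sharing 1 estimate of the spread, the OVCAR-3 effect at 72 h called 50 members higher (20.3% of all genes) and 4 lower (17.4%). The median over members was 0.66 in that model and 0.64 in the model of the OVCAR-3 libraries of 72 h alone, which called none.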

How the data were processed

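RNA-seq was analysed from 22 libraries of OVCAR-3, CAOV3 and SKOV3 cells. The authors deposited raw counts per gene, and per the submitters' processing notes STAR, DESeq2 and GRCh38 (hg38) were used. The annotation release and the strand setting of the counting were not stated in those sources. Of 58825 genes, 58472 were named from a gene name table and 345 from GENCODE 29, and 8 had no name. Positions and overlaps came from GENCODE 29, matched by unversioned identifier.

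Members and lists were chosen with earlier results of these data known. Counts were filtered with filterByExpr (minimum count 10), scaled by TMM and fitted with edgeR 4.0.16 (R 4.3.3, limma 3.58.1) by its robust quasi-likelihood test with a prior count of 0.125. Each model held compound and library set, where replicates 1 and 2 form the first set and replicate 3 the second. P-values were adjusted by the Benjamini-Hochberg method across every tested gene, and a gene was called at 0.05. Each line was fitted alone at 72 h, OVCAR-3 at 48 h with all 10 of its libraries, and differences between lines with the 18 libraries of 72 h. Named members are up to 6 highest and 6 lowest called in each comparison, or, with under 3 called, the 3 highest and 3 lowest. The levels described for single genes, the members of the promoter windows and those whose order differs between sets were chosen after their values were seen. Alternatives were DESeq2 1.42.0 (size factors and Wald test), no filter, a replicate block, other sets of libraries and leaving out each replicate. The scripts were tested on simulated data.

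Same-numbered SKOV3 libraries deviated together, with correlations of 0.44, 0.45 and 0.78. These are deviations from the mean of all libraries of a compound, with library set left in. The correlations therefore cannot tell pairing by number from the difference between the sets. The replicate block called 0 SKOV3 members, as without it, and 6 genes higher and 16 lower against 4 and 3.

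Total counts were 24037007 to 37990707 per library.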

Additional observations from a re-analysis of the deposited data

Results flagged for a closer look

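The effect of GSK-J4 at 72 h was called different between OVCAR-3 and the other lines in part of the members. The difference itself was tested in the model of 18 libraries (edgeR's quasi-likelihood test, adjusted p under the threshold). That model shares 1 estimate of the spread over the lines, and the OVCAR-3 libraries of 72 h alone called no member. Against CAOV3 it was higher in 20 members (12.7% of all genes) and lower in 4 (6.63% of all genes). The log2 differences were 1.43 in MRPS30, 1.42 in MRPL58, 1.38 in MRPS35, 1.35 in MRPS2, 1.15 in MRPS26 and 1.14 in MRPL21. They were -2.24 in MRPL50, -1.63 in MRPS17, -0.77 in MRPL57 and -0.76 in MRPS7. MRPS17 shares all its coding bases with a neighbour and is uncertain.

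Against SKOV3 the effect was higher in 30 members (13% of all genes) and lower in 1 (7.82% of all genes). The log2 differences were 1.70 in MRPS2, 1.69 in MRPL58, 1.53 in MRPS30, 1.45 in MRPL21, 1.41 in MRPS35 and 1.40 in MRPL48, and -1.66 in MRPL50. The comparisons share the OVCAR-3 libraries, and both lost every call of a member without replicate 1 or without replicate 2.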

How the results depend on the processing

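Counts of members called by edgeR's quasi-likelihood test are given as higher and lower. They describe how the calls of members move with the processing. Where no share of all genes is given above, a count does not tell whether members differ from other genes. Without the low-count filter they were 9 and 1 in CAOV3 at 72 h, 15 and 1 in OVCAR-3 at 72 h, and 19 and 7 at 48 h. DESeq2's Wald test gave 9 and 1 in CAOV3, 37 and 2 in OVCAR-3 at 72 h, 13 and 9 at 48 h, 1 higher for 72 h minus 48 h, and 3 lower for OVCAR-3 minus SKOV3. DESeq2's size factors gave 2 higher at 48 h. The model of 18 libraries gave 50 and 4 in OVCAR-3 at 72 h, that of all 10 OVCAR-3 libraries 44 and 3, and the 4 libraries of 48 h alone 41 and 10 at 48 h.

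Replicates 1 and 2 alone gave 28 and 1 in CAOV3, 55 and 8 in OVCAR-3 at 72 h, 41 and 10 at 48 h and 33 higher for 72 h minus 48 h. They gave 38 and 12 for OVCAR-3 minus CAOV3, 51 and 8 for OVCAR-3 minus SKOV3, and 4 higher for CAOV3 minus SKOV3. Among controls they gave 21 lower for OVCAR-3 against CAOV3, 41 higher for OVCAR-3 against SKOV3 and 39 higher for CAOV3 against SKOV3. Each of these control comparisons also had members called in the other direction, and their shares of all genes are not given. No lean of the members is read from these counts. The cause was not tested.

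The replicate block gave 0 higher and 1 lower at 48 h and 0 members in each line at 72 h. Same-numbered libraries correlated at 0.067, 0.021 and 0.26 in CAOV3, at 0.11 in OVCAR-3 at 48 h, and at -0.096, 0.039 and -0.0027 in OVCAR-3 at 72 h, so there the numbers were not taken as pairs.

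Leaving out each replicate gave 0 to 31 higher and 0 to 1 lower in CAOV3, 0 to 56 and 0 to 8 in OVCAR-3 at 72 h, 0 to 41 and 0 to 10 at 48 h, and 0 to 33 higher for 72 h minus 48 h. It gave 0 to 38 and 0 to 12 for OVCAR-3 minus CAOV3, 0 to 51 and 0 to 8 for OVCAR-3 minus SKOV3, and 0 to 4 higher for CAOV3 minus SKOV3. Among controls the ranges were 10 to 29 and 8 to 21 for OVCAR-3 against CAOV3, 11 to 41 and 3 to 11 for OVCAR-3 against SKOV3, and 8 to 39 and 7 to 14 for CAOV3 against SKOV3. For the difference between library sets, left out after seeing the data, they were 7 to 10 and 31 to 51 in OVCAR-3, 0 to 5 lower in CAOV3 and 0 to 1 higher in SKOV3. Where an arm kept 1 library, it was assumed to vary like the others.

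Of 599 values of single members under an alternative, 468 kept direction and side of the threshold, 131 kept direction but lost the call, and 0 reversed. Members under 100 counts cannot be read at this depth.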
